A study of Mus musculus with 20 samples.

Results

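The genes described here are 10 genes of the mammary luminal epithelium and of simple epithelia, measured in mouse flank tissue: the transcription factors Foxa1, Gata3, Elf5 and Ehf, the hormone receptors Esr1 and Pgr, the adhesion molecule Epcam, and the keratins Krt8, Krt18 and Krt19. They were chosen by symbol, as the probe sets annotated to exactly 1 of these genes, and they are 10 of the 18194 genes with a probe set of their own on the array. Together they had 21 probe sets, and the main value of each gene came from its probe set with the highest mean signal. Foxa1 and Pgr entered the list because they were among the genes with the largest differences from control in an earlier look at these data, so their levels are described without a test. The other 8 were added with those results known, and their adjusted p-values come from a fit over all 13595 tested genes. The 8 calls are therefore no independent evidence of a direction.

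The study followed the Ad-VEGF-A164 flank model, in which an adenoviral vector carries the gene for VEGF-A164, a growth factor for blood vessels, with 1 Affymetrix Mouse Genome 430 2.0 array per sample. The control group held 5 arrays of flank tissue from day 0 (A to E). The vector groups held 4 arrays of day 5 (B to E), 5 of day 20 (A to E) and 5 of day 60 (A to E). A further array carried the title of day 5 A but the source name of the day 0 control, and it entered no group. All groups were flank tissue, and the labels name no genotype, strain, age, sex or vector dose, no empty vector and no separate animals. VEGF-A164, the vector, its delivery and the passage of time therefore cannot be told apart, and the p-values reflect only how far these arrays lie apart, a spread that could be technical. Every comparison with control uses the same 5 control arrays.

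Foxa1 is a forkhead factor that opens chromatin for the oestrogen receptor, which Esr1 encodes, and the progesterone receptor gene Pgr is a classical target of that receptor. In the mouse mammary gland, cells with these receptors form the hormone-sensing luminal lineage, Gata3 maintains luminal identity, and the ETS factor Elf5 drives the alveolar, milk-producing lineage. Krt8 and Krt18 pair into the intermediate filaments of simple epithelia, Krt19 is another keratin of such epithelia, and Epcam is a surface adhesion protein of most epithelia. Several of these genes are also used outside the gland, for example Gata3, Epcam and Ehf in hair follicles or epidermis, Esr1 in fibroblasts and Pgr in other hormone-responsive tissue. The labels name flank tissue and no mammary gland, so the genes are called luminal here by their known function.

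Of the 10 genes, 8 had an entry among the RefSeq promoter sequences of build GRCm38.p6, and Esr1 and Elf5 had a pair of start sites each, which gave 10 windows of 250 bases before a start site. Ehf and Krt19 had no entry. The 4 windows below are shown because their genes had some of the lowest signals after the vector relative to control and because Krt8 and Krt18 are neighbours on chromosome 15. They are written 5′ to 3′ on the strand of the gene, and capitals mark matches to 6 searched motifs on either strand. They are Foxa1 at chr12:57546112-57546361 (minus strand), Pgr at chr9:8899583-8899832 (plus), Krt8 at chr15:102004343-102004592 (minus) and Krt18 at chr15:102027966-102028215 (plus).
Foxa1: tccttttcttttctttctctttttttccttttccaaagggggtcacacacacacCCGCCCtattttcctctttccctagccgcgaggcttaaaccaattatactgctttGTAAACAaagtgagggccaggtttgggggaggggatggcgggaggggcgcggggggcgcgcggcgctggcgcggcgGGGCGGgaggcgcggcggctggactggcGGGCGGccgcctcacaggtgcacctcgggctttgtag
Pgr: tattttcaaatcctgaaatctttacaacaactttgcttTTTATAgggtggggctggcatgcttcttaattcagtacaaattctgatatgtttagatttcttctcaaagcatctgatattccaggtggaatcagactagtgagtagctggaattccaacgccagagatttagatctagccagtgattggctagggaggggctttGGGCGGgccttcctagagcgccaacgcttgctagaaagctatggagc
Krt8: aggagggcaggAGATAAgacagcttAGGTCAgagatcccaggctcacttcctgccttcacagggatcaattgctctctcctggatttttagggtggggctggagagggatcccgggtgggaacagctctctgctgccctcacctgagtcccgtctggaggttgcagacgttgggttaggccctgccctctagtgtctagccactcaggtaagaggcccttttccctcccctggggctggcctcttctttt
Krt18: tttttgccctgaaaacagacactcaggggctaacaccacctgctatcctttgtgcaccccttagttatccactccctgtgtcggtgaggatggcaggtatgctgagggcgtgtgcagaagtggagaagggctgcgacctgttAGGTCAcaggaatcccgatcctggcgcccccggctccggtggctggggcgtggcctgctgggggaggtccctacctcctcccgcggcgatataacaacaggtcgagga

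The forkhead motif TGTTTAC was found in 1 of the 10 windows, that of Foxa1 itself, where it lies on the opposite strand 141 bases before the start site, and in 3.17% of the 32851 windows searched. The nuclear receptor core motif AGGTCA was found in 2 windows, 225 bases before the Krt8 start and 108 bases before the Krt18 start, against 14% of all windows. The GATA motif AGATAA was found in the Krt8 window only among the 10, against 9.99% of all. The ETS motif CCGGAA was found in 1 window, that of Gata3, on the opposite strand, against 12%. The GC box GGGCGG was found in 4 of the 10, those of Foxa1, Pgr, Gata3 and Epcam, against 32.7%. The TATA motif TATAAA was found in the Pgr window, on the opposite strand 212 bases before the start, against 12.4%. The matches did not overlap each other, and they describe the letters of these windows only.

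Signals are MAS5 values on a linear scale, with a scaling factor of 1500 named in the labels. The median signal ranged over 405.9 to 569.3 between the 20 arrays, no 2 arrays were identical, and 34.0% to 43.0% of probe sets on an array lay under 300, the minimum mean used for testing. The ratio of the 3′ to the 5′ beta-actin control, a measure of RNA integrity, also differed between the groups. It ranged over 4.15 to 9.12 in control (median 7.13), 2.95 to 7.31 on day 5 (median 4.51), 2.60 to 7.56 on day 20 (median 4.06) and 4.32 to 13.97 on day 60 (median 10.4), where arrays A (13.97), D (10.9) and B were highest. Its part in the results of any day was not tested. Xist, the X-inactivation transcript, read between 43342 and 100925 on all 19 arrays in a group, while the Y-linked genes Eif2s3y, Kdm5d and Uty read at most 408.6. Changes are differences of log2(signal + 100) between group means, which understates the change of genes near the low end, and a call is a limma adjusted p under 0.05. Mean signals are given ± SD and log2 changes ± SE, over 5 arrays a group and 4 on day 5. All 10 genes passed the minimum, which is set on the mean over all 19 arrays and so lets through genes that are high in control only.

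By their main probe sets, all 10 genes had lower signals in every day 5 and every day 20 array than in any control array. So did 14.8% of all tested genes for day 5 and 9.63% for day 20. Foxa1 and Pgr were chosen for this difference, so their separation is a description only. On day 5, all 8 tested genes fell, where 16.8% of all tested genes were called higher, 17.5% lower and 34.3% in either direction. On day 20, the same 8 genes fell, where 15.6% of all genes were called higher, 14.5% lower and 30.1% in either direction. The median log2 change of the 8 was -1.88 on day 5 and -2.48 on day 20, against -0.07 and -0.06 over all tested genes. In whole tissue, fewer cells of a type and less RNA per cell cannot be told apart. Sizes differed widely between the genes. Esr1 stood at 28.4% to 52.8% of the control mean over the arrays of both days, and Foxa1 and the keratins Krt8, Krt18 and Krt19 at no more than 8.19% in any of them.

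**Figure D1:**
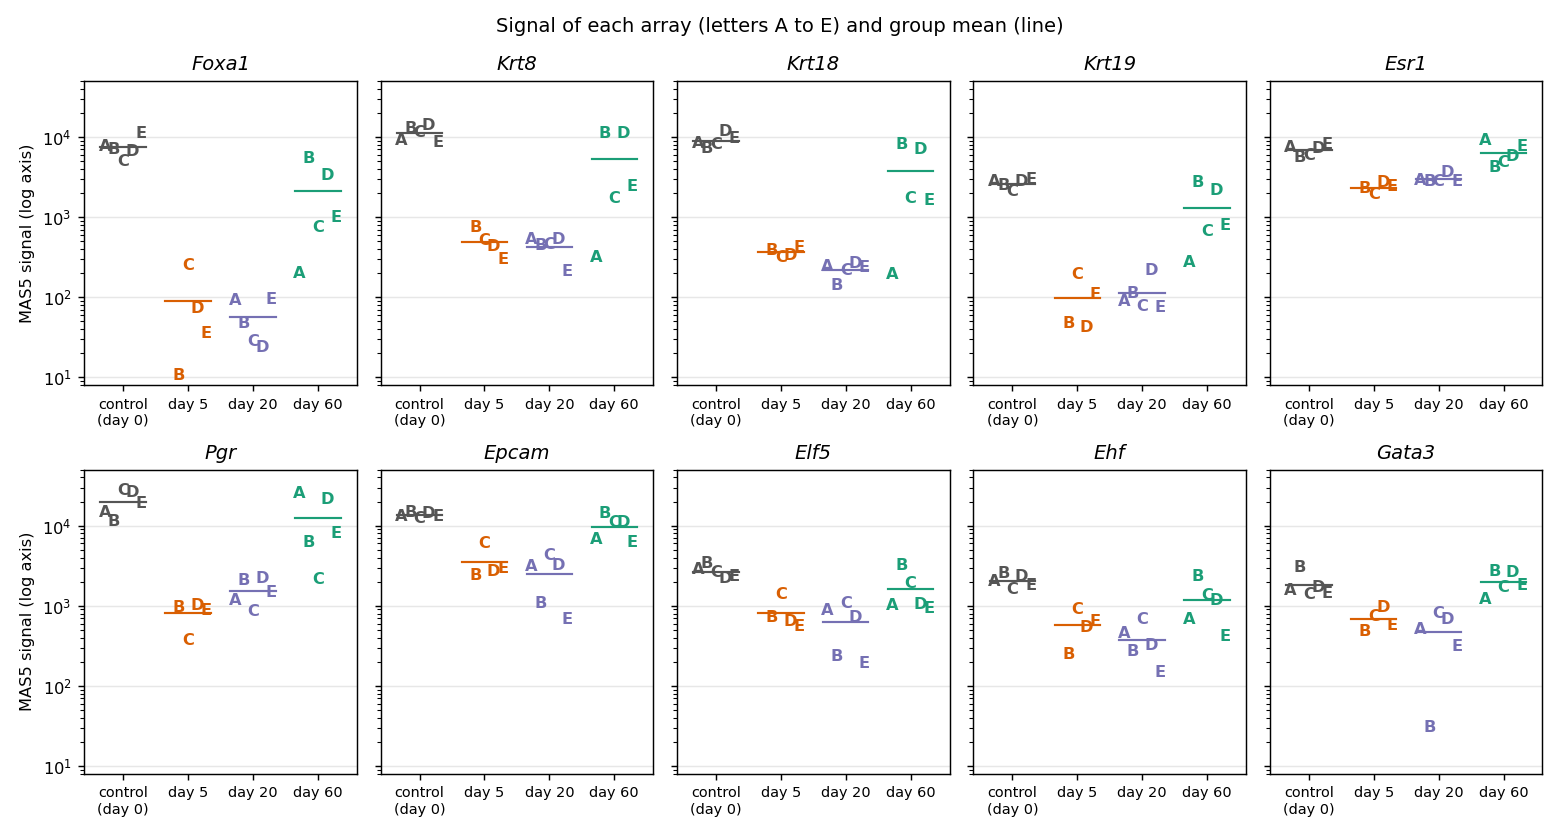
MAS5 signal (log axis) of the 10 genes on each of the 19 arrays, by group in order of time; letters are the arrays and lines the group means. All day 5 and day 20 letters lie below all control letters for each gene, and the day 60 letters of Foxa1, Krt8, Krt18 and Krt19 spread between the levels of day 20 and control.

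Foxa1, the forkhead factor, was chosen for its change. Its signal was 7651.0, 6962.7, 4982.4, 6560.1 and 10916.2 in controls A to E. On day 5 it was 10.6, 245.8, 71.7 and 35.4 in arrays B to E, and on day 20 it was 92.2, 46.6, 28.3, 23.8 and 92.7 in arrays A to E. All 9 readings lie under 300 and between 0.143% and 3.31% of the control mean. On day 60 it was 197.1, 5384.0, 749.8, 3354.6 and 983.8 in arrays A to E. Day 60 B lay inside the control range, D at 45.2% of the control mean, C and E at 10.1% and 13.3%, and A at 2.66%. The log2 difference from control was -5.40 ± 0.58 (SE) on day 5, -5.56 ± 0.54 on day 20 and -2.39 ± 0.54 on day 60. With readings this low the size depends on the pseudocount, and the day 5 difference was -7.09 with a pseudocount of 1 and -3.72 with 500. The day 60 difference was -1.83 without day 60 A and -2.88 without day 60 B.

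Pgr, the progesterone receptor, read 14620.1, 11221.5, 27441.6, 25859.2 and 18712.4 in control arrays A to E. It read 964.1, 371.6, 994.7 and 878.2 on day 5 (B to E) and 1166.6, 2064.6, 849.9, 2176.7 and 1464.3 on day 20 (A to E). It thus stood at 1.90% to 11.1% of the control mean on both days. Arrays A, B, D and E of day 20 lay above every day 5 array, and C lay inside the day 5 range. On day 60 it read 25066.8, 6171.6, 2146.7, 21461.2 and 7897.9 in arrays A to E. Arrays A and D lay inside the control range, and C, at 11.0% of the control mean, lay inside the day 20 range. The log2 difference from control was -4.44 ± 0.52 on day 5, -3.58 ± 0.49 on day 20 and -1.04 ± 0.49 on day 60, the last being -0.54 without day 60 C.

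Esr1, the oestrogen receptor, fell less. It averaged 2330 ± 318 (SD, n = 4) on day 5 against 6819 ± 1111 in control (n = 5), a log2 change of -1.50 ± 0.19 (limma adjusted p = 7.81e-06). On day 20 it averaged 2962 ± 360 (n = 5), a change of -1.17 ± 0.18 (adjusted p = 6.54e-05). The arrays of a group lay close together on both days, at 28.4% to 39.7% of the control mean on day 5 and 40.4% to 52.8% on day 20. All 5 day 20 arrays lay above all 4 day 5 arrays, as in 6.41% of all tested genes, but the difference of 0.34 ± 0.19 did not pass (adjusted p = 0.344). On day 60 it read 9168.3, 4218.5, 4760.0, 5655.9 and 7579.0 in arrays A to E, against 7423.3, 5472.7, 5861.0, 7227.8 and 8111.6 in controls A to E. By the main probe set, day 60 A had the highest Esr1 signal of the 19 arrays, and B and C lay below every control. The groups thus overlapped, and the change of -0.16 ± 0.18 did not pass (adjusted p = 0.69). In a second bright Esr1 probe set day 60 A read 5040.1, below day 60 E at 5377.0 and inside the control range of 5009.7 to 6571.9.

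Gata3 averaged 681 ± 208 on day 5 and 466 ± 306 on day 20, against 1802 ± 666 in control. It fell by 1.26 ± 0.41 on the log2 scale on day 5 (adjusted p = 0.0239) and by 1.96 ± 0.39 on day 20 (adjusted p = 0.00085). The day 5 call rested on single arrays: the adjusted p was 0.0573 without control B, 0.0732 without day 5 B and 0.0572 without day 5 E. Control B, at 2972.7, was well above controls A, C, D and E, which read between 1374.1 and 1693.1. On day 20 array B read 30.3, or 1.68% of the control mean, and arrays A, C, D and E read 506.5, 812.7, 667.6 and 313.3. On day 60 Gata3 read 1209.6, 2694.1, 1703.1, 2605.3 and 1814.7 in arrays A to E, and arrays B to E all lay within the control range. The day 60 change of 0.15 ± 0.39 did not pass (adjusted p = 0.882).

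The ETS factors Elf5 and Ehf lie next to each other on chromosome 2, and both changed by similar amounts. Elf5 averaged 823 ± 375 on day 5 and 621 ± 393 on day 20, against 2671 ± 473 in control, and fell by 1.65 ± 0.40 (adjusted p = 0.00379) and 2.14 ± 0.38 (adjusted p = 0.000288) on the log2 scale. Ehf, a factor of stratified and glandular epithelia, averaged 583 ± 275 on day 5 and 369 ± 198 on day 20, against 2055 ± 361 in control. It fell by 1.74 ± 0.38 (adjusted p = 0.00172) and 2.29 ± 0.36 (adjusted p = 9.58e-05). Within day 20 both were lowest in arrays B and E, where Elf5 read 235.7 and 188.9 and Ehf 268.2 and 148.7. Elf5 read 884.0, 1073.0 and 721.3 in day 20 arrays A, C and D. On day 60 Elf5 read 997.4, 3183.1, 1919.9, 1027.9 and 933.7 and Ehf read 678.1, 2291.9, 1360.8, 1172.8 and 409.0 in arrays A to E. In both genes day 60 B lay inside the control range and the other 4 arrays lay below every control. The day 60 changes of -0.84 ± 0.38 in Elf5 (adjusted p = 0.285) and -0.93 ± 0.36 in Ehf (adjusted p = 0.207) did not pass.

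Epcam had the same lowest arrays on day 20. It read 2381.3, 6048.3, 2668.6 and 2915.4 on day 5 (B to E), against 13083.5, 14831.8, 12401.1, 14362.5 and 12960.0 in controls A to E. On day 20 it read 3108.0, 1067.0, 4307.8, 3198.0 and 683.1 in arrays A to E. Arrays B and E of day 20 were again the lowest, at 7.89% and 5.05% of the control mean, and day 5 C, at 44.7%, was the highest of both days. Epcam fell by 2.02 ± 0.41 on day 5 (adjusted p = 0.000802) and by 2.68 ± 0.38 on day 20 (adjusted p = 3.19e-05) on the log2 scale. On day 60 it read 6641.6, 14135.7, 10917.9, 10913.8 and 6165.6 in arrays A to E, with B inside the control range, and the change of -0.53 ± 0.38 did not pass (adjusted p = 0.51).

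The keratin partners Krt8 and Krt18, whose genes are neighbours, both fell by over 4 log2 units. Krt8 read 738.4, 511.5, 423.5 and 293.6 on day 5 (B to E) and 518.5, 440.8, 451.7, 518.3 and 212.0 on day 20 (A to E), against 9017.8, 12896.0, 11316.5, 13850.2 and 8499.2 in controls A to E. Krt18 read 387.8, 308.9, 334.1 and 416.7 on day 5 and 243.9, 138.0, 216.8, 264.1 and 238.0 on day 20, against 8370.1, 7214.0, 8042.1, 11570.5 and 9697.7 in control. The arrays of both days stood at 1.91% to 6.64% of the control mean for Krt8 and at 1.54% to 4.64% for Krt18. The log2 change of Krt8 was -4.27 ± 0.65 on day 5 (adjusted p = 5.21e-05) and was -4.42 ± 0.61 on day 20 (adjusted p = 2.05e-05). That of Krt18 was -4.28 ± 0.61 (adjusted p = 2.9e-05) and -4.82 ± 0.58 (adjusted p = 4.26e-06). All 5 day 20 arrays of Krt18 lay below all 4 day 5 arrays, as in 5.93% of all tested genes, though the difference of -0.54 ± 0.61 did not pass (adjusted p = 0.68).

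Krt19 fell alongside them. It read 46.8, 193.4, 41.9 and 108.0 on day 5 (B to E) and 87.4, 110.5, 76.4, 213.6 and 74.7 on day 20 (A to E), against 2794.3, 2469.9, 2073.4, 2787.2 and 2921.7 in controls A to E. The log2 change was -3.83 ± 0.42 on day 5 (adjusted p = 1.55e-06) and was -3.70 ± 0.40 on day 20 (adjusted p = 1.27e-06). Like Foxa1, it read near the low end of the arrays on both days.

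On day 60 the 3 keratins differed more between arrays than in any other group. Krt8 read 316.4, 11008.5, 1728.4, 11089.2 and 2433.6 in day 60 arrays A to E. Krt18 read 193.9, 8072.6, 1727.0, 7054.9 and 1603.9, and Krt19 read 272.4, 2718.5, 663.9, 2132.4 and 792.3. In all 3 genes arrays B and D stood at 78.6% to 104% of the control mean, C and E at 15.5% to 30.4%, and A at 2.16% to 10.4%. Foxa1 likewise was highest in B, followed by D, E and C, and lowest in A. The log2 change from control was -1.88 ± 0.61 in Krt8 (adjusted p = 0.124), -2.02 ± 0.58 in Krt18 (adjusted p = 0.0885) and -1.29 ± 0.40 in Krt19 (adjusted p = 0.106), and none passed. These calls turned on single arrays. Without day 60 B the change was called in Krt18 (-2.49, adjusted p = 0.0266) and Krt19 (-1.63, adjusted p = 0.0292), and without day 60 D in Krt18 (-2.44, adjusted p = 0.0307) and Krt8 (-2.36, adjusted p = 0.0425).

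**Figure D2:**
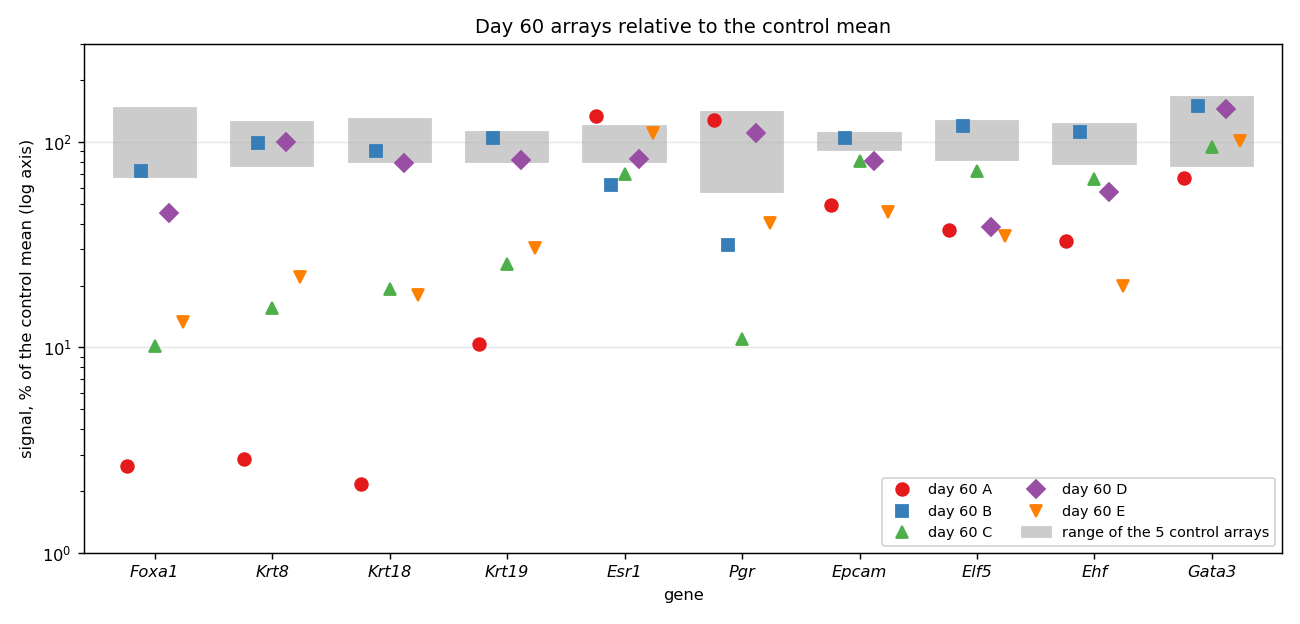
Signal of the main probe sets of the 10 genes on the 5 day 60 arrays, as a percentage of the mean of the 5 control arrays (log axis). Grey bands show the range of the control arrays. Day 60 A (red) reads 2.66% for Foxa1 and 2.85% for Krt8 but 134% for Esr1 and 128% for Pgr, whereas day 60 B (blue) reads 99.0% for Krt8 and 31.5% for Pgr.

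None of the 8 tested genes was called between day 60 and control, where 0.368% of all tested genes were called higher, 0.765% lower and 1.13% in either direction, and 5 of the 8 had an unadjusted p under 0.05, as did 15.9% of all tested genes. The receptors and the keratins did not share their order of arrays on day 60. By the main probe sets, array A had the lowest reading of the day in Foxa1, Krt8, Krt18 and Krt19 and the highest in Esr1 and Pgr. In the second bright Esr1 probe set array E was the highest instead. Array C had the lowest Pgr, at 2146.7, while its Epcam stood at 80.7% and its Gata3 at 94.5% of the control mean.

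By the main probe sets, day 60 was higher than day 20 in all 8 tested genes, where 11% of all genes were called higher and 22.1% in either direction. The log2 change was 2.54 ± 0.61 in Krt8 (adjusted p = 0.00508), 2.81 ± 0.58 in Krt18 (adjusted p = 0.00161), 2.41 ± 0.40 in Krt19 (adjusted p = 0.000226) and 2.15 ± 0.38 in Epcam (adjusted p = 0.000497). It was 2.11 ± 0.39 in Gata3 (adjusted p = 0.000678), 1.01 ± 0.18 in Esr1 (adjusted p = 0.000467), 1.36 ± 0.36 in Ehf (adjusted p = 0.0106) and 1.31 ± 0.38 in Elf5 (adjusted p = 0.0176). All 5 day 60 arrays lay above all 5 day 20 arrays in Foxa1, Esr1, Gata3, Epcam and Krt19, as in 7.02% of all tested genes, and 4 of 5 did in Pgr, Ehf, Krt8 and Krt18, but 2 of 5 in Elf5. The Elf5 call was lost without day 20 B (adjusted p = 0.0595), day 20 E (0.0536) or day 60 B (0.0511). Foxa1 differed by 3.18 ± 0.54 and Pgr by 2.54 ± 0.49, given without a test.

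Against day 5, day 60 was higher in 6 of the 8, where 12.2% of all genes were called higher and 24.4% in either direction: Krt19 by 2.54 ± 0.42 (adjusted p = 0.000228), Krt8 by 2.39 ± 0.65 (0.0106), Krt18 by 2.27 ± 0.61 (0.0105), Epcam by 1.48 ± 0.41 (0.0117), Gata3 by 1.41 ± 0.41 (0.0175) and Esr1 by 1.34 ± 0.19 (4.69e-05). Elf5, at 0.81 ± 0.40 (adjusted p = 0.154), and Ehf, at 0.81 ± 0.38 (adjusted p = 0.133), did not pass, and Ehf passed without day 60 E (1.10, adjusted p = 0.0327). The Gata3 call was lost without day 5 B (adjusted p = 0.0618). Between day 20 and day 5 none of the 8 passed limma's test and none had an unadjusted p under 0.05, where 3.05% of all genes were called higher, 2.25% lower and 5.3% in either direction, and 19.9% had an unadjusted p under 0.05.

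How alike the genes were over the 14 vector arrays was described by the root-mean-square difference of their log2 changes from the control mean, a measure in log2 units that is 0 for identical profiles. The closest pairs were Krt8 with Krt18 and Elf5 with Ehf, both at 0.45, followed by Elf5 with Epcam at 0.51. Foxa1 lay nearest to Krt18, at 0.92, and farthest from Esr1, at 3.79. Pgr lay nearest to Krt19, at 1.22, and its distance to Esr1 was 2.31. All pairs share the same libraries and control mean, and the measure leaves out how the genes vary among the control arrays.

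Among the other tested genes, the 3 nearest to Foxa1 were the carboxylesterase Ces1d (0.75), the lipogenic regulator Thrsp (0.87) and the cytochrome P450 Cyp2e1 (0.94), and Cyp2e1 was also the nearest to Krt18 (0.41). Cyp2e1 had a control mean of 37746 ± 25166, with 1562 ± 189 at day 5, 961 ± 396 at day 20 and 18065 ± 21098 at day 60. Its control arrays ranged over 16141.5 to 78588.0, against 7214.0 to 11570.5 for Krt18. Krt8 and Krt19 lay nearest to Aqp5, a water channel of glandular epithelia (0.63 and 0.57), followed by Cyp2e1 and Acaa1b (0.73 and 0.84) for Krt8 and the fatty acid synthase Fasn and Ces1f (0.59 and 0.60) for Krt19. Aqp5 averaged 36.2 ± 16.5 on day 5 and 31.5 ± 14.4 on day 20, against 1892 ± 686 in control. Esr1 lay nearest to Fzd7 (0.25), a Wnt receptor, Cdon (0.26), a hedgehog co-receptor, and Cbx7 (0.26), a Polycomb protein. Pgr had no close match: Inmt (1.18), Wfdc2 (1.22) and H2-Q10 (1.28) came nearest. Elf5 lay nearest to Fxyd3 (0.45), Muc15 (0.47) and Echdc1 (0.52), Ehf to Kcnk1 (0.53), Gstz1 (0.54) and Echdc1 (0.54), Epcam to Kdf1, the desmosomal cadherin Dsg2 and Tmem30b (all 0.55), and Gata3 to Klc3 (0.41), Hook1 (0.42) and Phgdh (0.44).

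On days 5 and 20 the other probe sets of the 10 genes differed from the main ones mostly in size. The full separation from control was lost in some that passed the minimum. In day 5 C the second Epcam probe set read 7038.0, against 6656.0 in control E, and the second Elf5 probe set 410.3, against 338.5 in control C. In day 20 C the Ehf probe set with the next highest mean read 458.8, against 326.1 in control C. The 3 Krt8 probe sets gave log2 changes of -4.42, -5.47 and -4.96 on day 20, all called. The last 2 are of a type that can match several transcripts, and they read at most 85.1 and 249.0 on day 20. For Esr1 a second bright probe set gave -1.97 ± 0.18 on day 5 and -1.40 ± 0.17 on day 20, both called, while another read at most 106.2 in any control array and gave 0.37 ± 0.29 on day 20. The change of the second Epcam probe set, whose type can match several transcripts, was -1.03 ± 0.28 on day 5 (adjusted p = 0.00953) and was -1.0 ± 0.27 on day 20 (adjusted p = 0.00933). The second Elf5 probe set gave -0.48 ± 0.39 on day 5, which did not pass (adjusted p = 0.385), and -1.18 ± 0.37 on day 20 (adjusted p = 0.0235). Of the 3 other Ehf probe sets, the change of the one with the highest mean was -0.87 ± 0.35 on day 5 (adjusted p = 0.0623) and was -1.20 ± 0.33 on day 20 (adjusted p = 0.00974), and that of the one with the lowest mean was 0.14 ± 0.41 on day 20. The other 2 Pgr probe sets read near the low end of the arrays even in control, where they averaged 218 and 89.6. For day 60 against day 20, the second Epcam probe set did not pass (0.34 ± 0.27, adjusted p = 0.425). Nor did the second Elf5 probe set (0.43 ± 0.37, adjusted p = 0.464) or that Ehf probe set (0.88 ± 0.33, adjusted p = 0.0636). Against day 5, the second Epcam probe set did not pass either (0.37 ± 0.28, adjusted p = 0.393). These day 60 calls of Epcam, Elf5 and Ehf thus depend on the probe set.

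**Figure D3:**
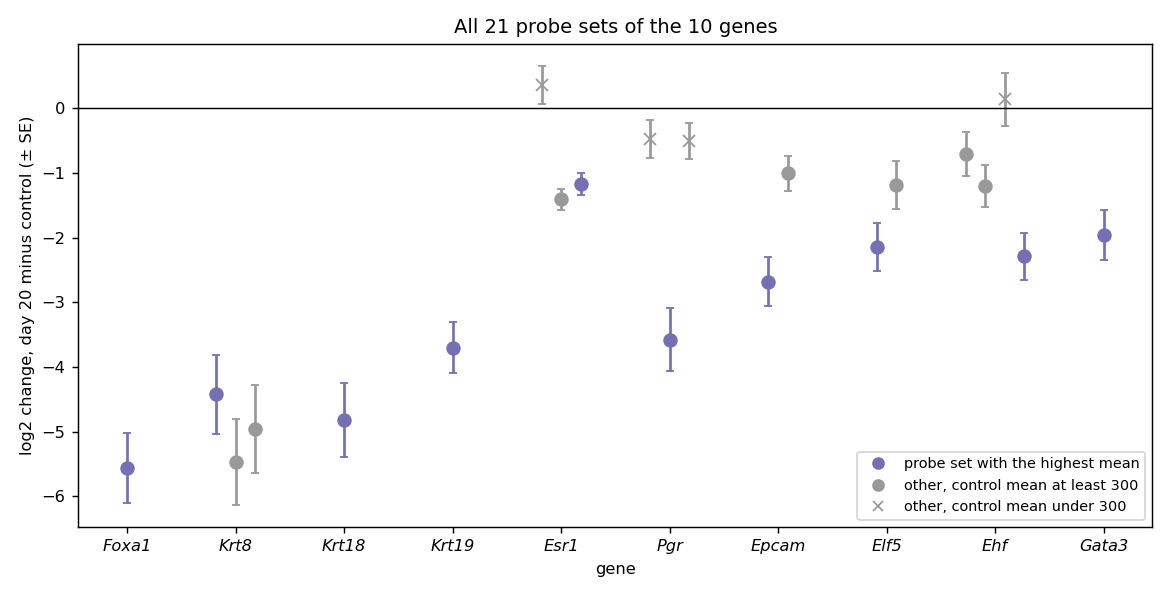
Log2 change on day 20 against control, with standard errors, for all 21 probe sets of the 10 genes; filled violet circles are the probe sets with the highest mean, grey circles other probe sets with a control mean of at least 300, and crosses those under it. Every probe set with a control mean of at least 300 lies below 0, and 2 dim ones, of Esr1 and Ehf, lie above it.

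Lists of related genes, chosen with earlier results of these data known, put the 10 genes in context. Their counts are to be read beside the shares of all tested genes. These were 17.5% lower and 16.8% higher on day 5, and 14.5% lower and 15.6% higher on day 20. On day 60 they were 0.765% lower and 0.368% higher. Of 14 hormone-sensing luminal genes 8 were tested, of which 5 fell on day 5, 4 fell on day 20 and 2 fell on day 60, with median log2 changes of -1.01, -1.07 and -0.08. Xbp1, a secretory pathway factor, did not pass on any day (0.19, 0.04 and 0.11). Stc2, a secreted stanniocalcin, had a control mean of 5206 ± 1112, with 963 ± 82.2 at day 5, 1431 ± 94.5 at day 20 and 2149 ± 1042 at day 60, and its change on day 60 passed (-1.32 ± 0.21, adjusted p = 0.0111). Prom1, a membrane protein of hormone-sensing luminal cells, had a control mean of 4469 ± 637, with 717 ± 341 at day 5, 595 ± 268 at day 20 and 1527 ± 886 at day 60. It too was called on day 60 (-1.62 ± 0.31, adjusted p = 0.0176).

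All 10 luminal progenitor genes were tested, of which 7 fell and 1 rose on day 5, 6 fell and 1 rose on day 20, and 1 fell on day 60, with medians of -0.82, -0.85 and -0.50. Lcn2, a secreted iron-binding lipocalin, averaged 396 ± 221 on day 5 and 125 ± 95.3 on day 20, against 4120 ± 1237 in control (log2 changes -3.13 ± 0.74, adjusted p = 0.003, and -4.28 ± 0.70, adjusted p = 0.000131). Kit, a receptor tyrosine kinase, changed by -0.58 ± 0.15 and -0.80 ± 0.14 (adjusted p = 0.00556 and 0.000288), and Tspan8 did not pass on any day. The gene that rose was the integrin Itgb3, which endothelial cells and platelets also carry, and the gene lower on day 60 was lactoferrin, Ltf (both named after their values were seen). Of 12 milk and alveolar genes 7 were tested, and 3, 4 and 1 fell on the 3 days, with medians of -0.32, -0.82 and -0.50. Csn3, which encodes kappa-casein, averaged 478 ± 93.3 on day 5 and 482 ± 133 on day 20, against 6306 ± 1449 in control. Btn1a1, a butyrophilin of milk fat, changed by -2.04 ± 0.24, -1.99 ± 0.23 and -1.15 ± 0.23 on the 3 days, all called. Xdh fell on day 20 only (-0.82 ± 0.25, adjusted p = 0.0165). Csn2, which encodes beta-casein, and Wap, both named after their values were seen, averaged 479 and 410 in control.

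Of 26 simple epithelial genes 21 were tested, of which 8 fell on day 5, 19 on day 20 and none on day 60, with medians of -0.79, -1.31 and 0.11, and none rose. Spint2, a protease inhibitor, fell by 1.37 ± 0.33 (adjusted p = 0.0032) and 1.87 ± 0.31 (adjusted p = 0.000139) on days 5 and 20, and Cdh1, which encodes E-cadherin, fell by 1.21 ± 0.40 (adjusted p = 0.024) and 1.87 ± 0.37 (adjusted p = 0.000888). Esrp1, an epithelial splicing factor, fell on day 20 (-2.30 ± 0.45, adjusted p = 0.000649) and did not pass on day 5 (-1.02 ± 0.47, adjusted p = 0.101). Of the 12 mammary basal genes 10 were tested, and 2 rose and 2 fell on day 5, 4 rose and 4 fell on day 20, and 2 fell on day 60 (medians -0.35, -1.3 and 0.28). The day 5 counts lie near the shares of all tested genes (16.8% higher and 17.5% lower). Those that rose on day 20 included Acta2 (1.26 ± 0.27, adjusted p = 0.00177), the smooth muscle actin also present in vessel walls, and Snai2 (0.60 ± 0.20, adjusted p = 0.0266). Trp63, the p63 factor of basal keratinocytes, fell on day 20 (-1.75 ± 0.36, adjusted p = 0.00105). The 2 that fell on all 3 days, named after their values were seen, were the oxytocin receptor Oxtr and the peptidase Mme, which averaged 1019 ± 815 and 2470 ± 551 on day 60, against 2663 ± 436 and 6231 ± 1878 in control.

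Of 19 relatives of the 10 genes 13 were tested, of which 5 fell and 1 rose on day 5, 4 fell on day 20 and none was called on day 60 (medians -0.28, -0.12 and -0.06). Among the tested relatives, Krt7 and Elf3 are also on the simple epithelial list and Spdef on the hormone-sensing list, so they are counted in both. Krt7, another simple keratin, fell on both days, with changes of -2.67 ± 0.47 (adjusted p = 0.000244) and -2.38 ± 0.45 (adjusted p = 0.000476). On day 60 it read 39.1, 776.3, 359.8, 1260.4 and 274.6 in arrays A to E, the order B and D high, C and E between and A lowest that Krt8, Krt18 and Krt19 had. Elf3, an epithelial ETS factor, fell by 0.87 ± 0.17 and 0.54 ± 0.16. The mineralocorticoid receptor Nr3c2 fell by 1.3 ± 0.22 on day 5 and the glucocorticoid receptor Nr3c1 by 0.57 ± 0.16. The related forkhead gene Foxa2 averaged 360 ± 88.5 on day 5 and 333 ± 64.1 on day 20, against 442 ± 139 in control, and did not pass. Gata2, a GATA factor of blood and vessel cells, averaged 3229 ± 423 on day 5 and 3880 ± 763 on day 20, against 3291 ± 868 in control, and did not pass either.

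Genes of other cells in the flank moved with some of the 10 genes. Of these lists only that of hair follicle and sebaceous gland entered a fit, as a covariate, and the part of none of them was tested. The 10 tested genes of hair follicle and sebaceous gland were lowest in day 20 arrays B (mean log2 difference from control -2.02) and E (-2.30), the arrays where Gata3, Elf5, Ehf and Epcam were low, against -0.39 to -0.64 in day 20 arrays A, C and D. The 11 epidermis genes read -1.86 and -2.40 in arrays B and E of day 20, and between -0.99 and 1.33 in A, C and D. The summed signal of the follicle list ranged over 14361 to 166377 on day 20, against 85807 to 319879 in control. That of the epidermis list ranged over 9589 to 124796 on day 20, against 37333 to 147099 in control. Of the follicle list 3 genes fell on day 5 and 7 on day 20 (medians -0.75 and -1.24), and of the epidermis list none was called on either day. Of all tested genes 17.5% fell on day 5 and 14.5% on day 20. The hair keratins Krt25 and Krt27 did not pass, and Krt71 fell on day 20 (-1.61 ± 0.58, adjusted p = 0.0414).

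With the mean of the follicle list as a covariate, an alternative added after the data were seen, the day 5 and day 20 calls of Esr1, Elf5, Ehf, Epcam, Krt8, Krt18 and Krt19 against control held. Those of Gata3 did not: its change was -0.61 on day 5 (adjusted p = 0.163), and by day 20 it was -0.87 (adjusted p = 0.0988). The differences of day 60 from day 20 became 0.94 in Gata3, 0.01 in Elf5, 0.48 in Ehf, 0.80 in Epcam, 1.75 in Krt8 and 2.43 in Krt18, none of them called (adjusted p = 0.113, 0.992, 0.487, 0.0724, 0.168 and 0.0541), while Esr1 and Krt19 kept theirs. Against day 5, the day 60 calls of Gata3 (0.68), Epcam (0.64) and Krt8 (1.89) were lost, and against control that of Elf5 was gained (-0.92, adjusted p = 0.0389). The follicle list was itself measured after the vector and was lower on day 20 (median -1.24). Its part and that of the day therefore cannot be told apart by this fit.

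The mean log2 differences of the 10 tested adipocyte genes followed the keratins across the day 60 arrays, at -2.14, -0.37, -1.26, -0.58 and -1.59 in A to E. The milk and alveolar list, at -1.38, -0.29, -0.74, -0.27 and -0.63, was likewise lowest in A and highest in B and D. So was the luminal progenitor list, at -0.91, -0.31, -0.83, -0.50 and -0.71. On days 5, 20 and 60, 8, 8 and 3 of the adipocyte genes fell (medians -1.43, -1.66 and -1.31). The summed signal of the adipocyte genes ranged over 343653 to 665015 in control, 219186 to 267337 on day 5, 260876 to 348661 on day 20 and 262939 to 492051 on day 60. On day 60 this sum had another order than the keratins, at 280052, 492051, 399264, 359639 and 262939 in A to E. Lpl fell on days 5 and 20 (-0.93 ± 0.15 and -0.51 ± 0.14), as did Car3 (-1.01 ± 0.17 and -0.47 ± 0.16), and Fabp4 did not pass. The skeletal muscle list, of which 3 of 8 genes fell on day 5 and none on day 20 or 60 (medians -1.45, -0.79 and -0.83), was lowest in day 60 B (-3.42), where the keratins were at control level. All 7 endothelial genes rose on days 5 and 20 (medians 2.44 and 2.05) and none was called on day 60. Kdr, the main VEGF receptor, averaged 5842 ± 1699 on day 5 and 6497 ± 1176 on day 20, against 1858 ± 518 in control, and Cdh5 averaged 14082 ± 1781 and 10561 ± 1493, against 2415 ± 677. Of the 5 macrophage genes 4 rose on day 5 and 2 on day 20 (medians 2.36 and 0.79).

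The 6 fibroblast genes stood at 0.65, -0.12, -0.54, 0.20 and 0.68 in day 60 arrays A to E, lowest in array C, where Pgr was lowest. Of this list 4 genes fell and 1 rose on day 5, and 2 fell and 1 rose on day 20 (medians -1.45 and -0.55). Dcn, a matrix proteoglycan, fell by 1.42 ± 0.20 on day 5 and 0.62 ± 0.19 on day 20. Pi16 and Pdgfra, 2 of the 6 fibroblast genes named after their values were seen, read 28955 and 17837 in day 60 A. Their means in control were 9160 ± 3805 and 12477 ± 2571. By their main probe sets, Esr1 and Pgr had their highest day 60 readings in that array. The list and Pgr did not share their order, however. The list was highest in day 60 E (0.68), where Pgr stood at 40.4% of the control mean. It stood at 0.20 in D, where Pgr stood at 110%. Of 7 T cell genes only 2 reached the minimum, and 1 rose on day 20 (median 0.61).

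**Figure D4:**
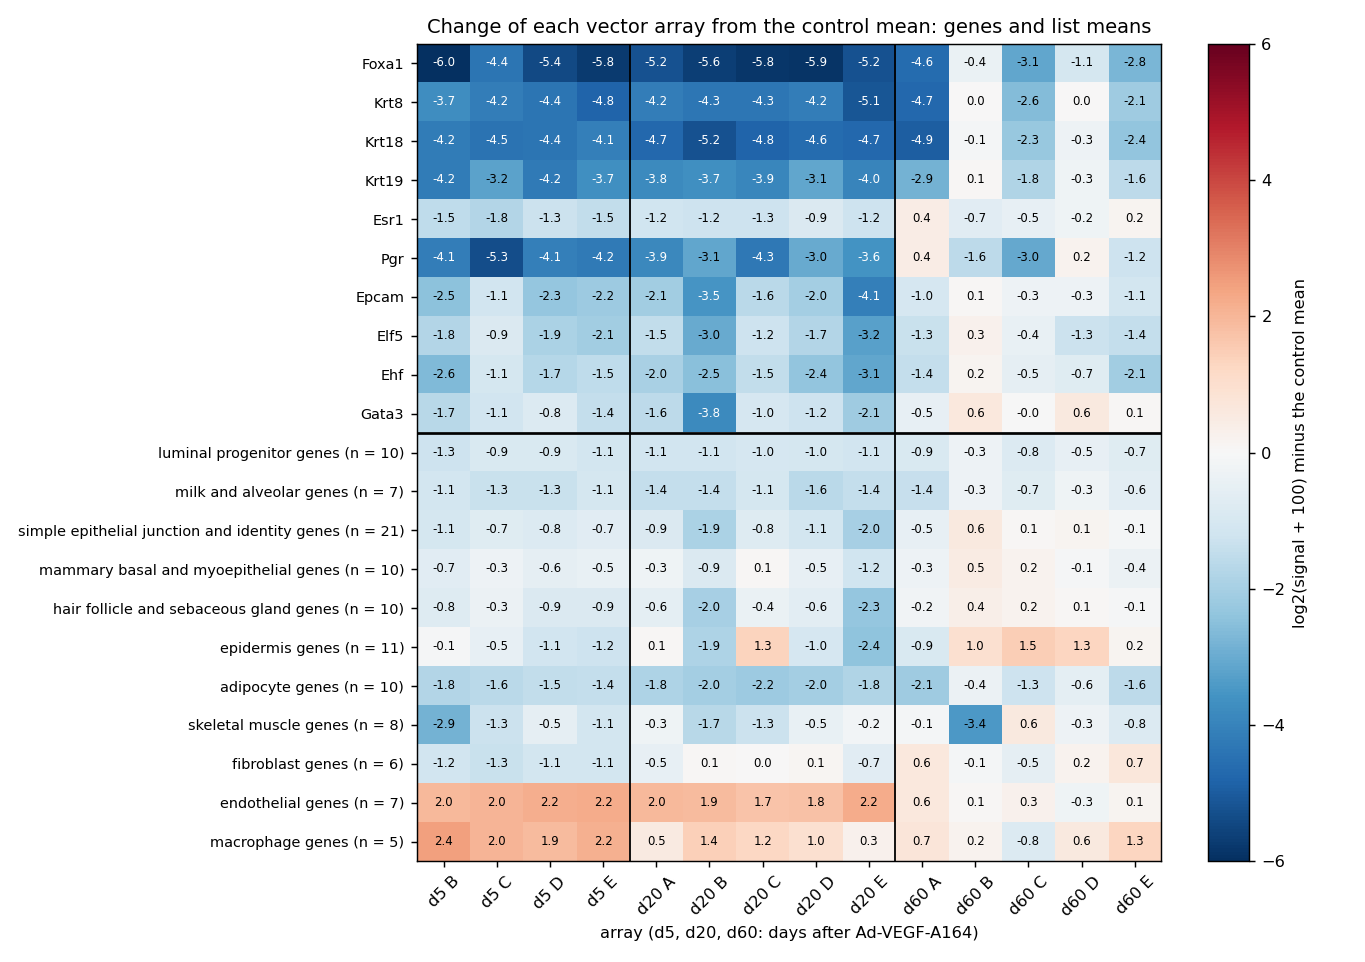
Change of each of the 14 vector arrays from the control mean on the log2(signal + 100) scale, for the 10 genes (top) and the means of 11 gene lists (bottom); blue is lower and red higher. Day 60 A shows -4.7 for Krt8 and -2.1 for the adipocyte list beside 0.4 for Esr1 and Pgr, and day 20 B and E are the bluest columns of the epidermis and follicle rows.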

How the data were processed

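RNA of flank tissue was hybridised to Affymetrix Mouse Genome 430 2.0 arrays by a contract laboratory (per the labels' protocols). The authors deposited intensity values, MAS5 signals on a linear scale with a scaling factor of 1500, per the labels, and GCOS 1.3 is named in the submitters' processing notes. Of 45101 probe sets (64 controls), 34958 had 1 gene symbol, 932 several and 9211 none here, and 34754 of the first matched the current gene table. Detection calls were not used here. Each gene was read from its brightest probe set, and the 13595 of 18194 genes whose mean reached 300 were tested with limma 3.58.1 in R 4.3.3 on log2(signal + 100). A single fit of 4 group means over 19 arrays, eBayes with a trend and Benjamini-Hochberg adjustment over all genes gave two-sided tests at 0.05. The procedure was also run on simulated data, with independent noise in each gene and changes planted on day 60 only. Such data cannot show how it performs where arrays share shifts over many genes. The members, lists and tests were chosen with earlier results of these data known. Foxa1 and Pgr, chosen by their change, were given no p-value, which is stricter than the design. Named genes were all members, all relatives and sex-linked genes, the 3 brightest control genes of each other list and the 3 nearest genes of each member; others are marked. Promoters came from RefSeq (GRCm38.p6). The array letters were not used to pair samples in the main fit. Of 27 same-letter pairs 11 correlated over 0.1 (-0.275 to 0.348), which cannot decide whether the letters pair samples. The number of arrays limits the precision. Alternatives covered the pseudocount, minimum, scaling, probe set choice, trend, weights, groups in the fit, each array left out, the block and the array in no group.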

Additional observations from a re-analysis of the deposited data

Results flagged for a closer look

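Of 40 gene and group combinations examined, 5 held an array that stood apart from the rest of its group, where chance gives about 1 in 20. Epcam in day 5 C (6048.3), Esr1 in day 20 D (3601.7) and Krt19 in day 20 D (213.6) lay above their groups. Krt8 in day 20 E (212) lay below its group, and Gata3 in control B (2972.7) above.

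The change from control differed between day 60 and the earlier days, by limma's test of the difference itself. Day 60 exceeded day 20 by 1.01 log2 units in Esr1, 2.11 in Gata3, 1.31 in Elf5, 1.36 in Ehf, 2.15 in Epcam, 2.54 in Krt8, 2.81 in Krt18 and 2.41 in Krt19. Day 60 exceeded day 5 by 1.34 in Esr1, 1.41 in Gata3, 1.48 in Epcam, 2.39 in Krt8, 2.27 in Krt18 and 2.54 in Krt19.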

How the results depend on the processing

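No member value changed sign with a call. Of 2040 recomputed member values 1980 kept their side of the threshold, or, without a test, moved by less than the SE of the main difference. An uncalled value could change sign and still be counted as kept. A further 28 lost a call, 6 gained one and 26 untested values of Foxa1 or Pgr moved. Foxa1 on day 5 was -7.09 with a pseudocount of 1 and -3.72 with 500, and Pgr -3.90 with 500 and -1.87 with the mean of its probe sets. A pseudocount of 1 ended the Gata3 calls of day 5 against control (adjusted p = 0.102) and day 60 against day 5 (0.0872). Fitting both groups only ended the day 60 against day 5 calls of Krt8 (adjusted p = 0.0617) and Krt18 (0.0647). The Elf5 call of day 60 against day 20 was lost in that fit (adjusted p = 0.0635), with array weights (0.0668) and with the mean of probe sets (0.0956). With the array in no group counted as control, the calls of Gata3 on day 5 (-1.06, adjusted p = 0.0804) and of Krt8 (0.0536) and Krt18 (0.0656) for day 60 against day 5 were lost, Foxa1 became -4.59, -4.76 and -1.58 and Pgr -3.55, -2.68 and -0.15 on days 5, 20 and 60 against control. With that array counted as day 5 instead, all 60 member values counted as kept. No scaling moved the median of all genes by over 0.1. Of all-gene counts, genes higher on day 60 than control (50) were 28 with no minimum, 147 with array weights, 6 with the mean of probe sets, 77 with the follicle covariate, and 0 with both groups only (853 at an unadjusted p under 0.05) or with the array in no group counted as control (799); the replicate block gave 32 and changed no member call. Genes lower (104) were 67 at a minimum of 1000, 51 with the mean of probe sets, 2 with both groups only and 0 with that array as control (678 unadjusted). Day 20 against day 5 (415 higher, 306 lower) gave 934 and 819 with array weights, 268 higher with the mean of probe sets, 493 lower with both groups only, 484 lower over all probe sets, and 225 and 125 with that array as control. That array as control also gave 1269 lower on day 5 (2373), and 1319 higher and 1034 lower on day 20 (2122 and 1974). All probe sets gave 3605 higher and 3602 lower on day 5, 2287 lower for day 60 against day 20 (1521) and 2647 lower against day 5 (1658). The follicle covariate, added after seeing the data, gave 1260 lower on day 20, and 582 higher and 864 lower for day 60 against day 20. The cause was not tested, except that more probe sets or fewer arrays change what is counted. Leaving out each array in turn gave 1971 to 2388 higher and 1867 to 2558 lower on day 5, 1723 to 2234 and 1448 to 2170 on day 20, 4 to 327 and 17 to 267 on day 60 against control, 239 to 513 and 179 to 363 for day 20 against day 5, 1123 to 1614 and 1185 to 1616 for day 60 against day 20, and 1100 to 1771 and 1326 to 1737 for day 60 against day 5. Signals under about 300 limit Foxa1 and Krt19 on days 5 and 20, and Krt18 on day 20. Some day 20 readings of Gata3, Elf5, Ehf and Krt8 also lay under 300.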

Other observations

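The array that the labels put in no group, titled day 5 A with the source name of the day 0 control, had signals of 155.8 for Foxa1, 356.9 for Pgr, 1922.3 for Esr1, 680.4 for Gata3, 884.3 for Elf5 and 624.3 for Ehf. It read 4400.0 for Epcam, 582.7 for Krt8, 363.2 for Krt18 and 232.0 for Krt19. The summed signal of the 7 endothelial genes was 45269 in this array. That sum ranged over 6592 to 12105 in control and 40477 to 46609 on day 5.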
